A study of Mus musculus with 24 samples.

Results

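The genes described here are 10 parts of the machinery that loads, tethers and fuses secretory vesicles: *Snap25*, *Stx1a*, *Vamp2*, *Syt1*, *Cplx1*, *Syp*, *Sv2a*, *Sv2c*, *Syn1* and *Rab3a*. They were taken by gene symbol from an expression table of 21833 mouse protein-coding genes, and all 10 were found. All 10 were higher in TI and in TIM tumors than in AG adrenal glands. The differences ranged from 1.21 (*Stx1a*) to 3.21 (*Cplx1*) in TI vs AG, as log2(FPKM + 1). FPKM is by its name fragments per kilobase of gene and per 1000000 fragments, and the deposited values are relative levels on the scale of the authors, as 7 genes exceeded what this definition allows for their length.

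RNA-seq was compared between adrenal glands and neuroblastoma tumors of mice on a C57Bl6/N background. AG were adrenal glands of mice without Cre (genotype CRE -, n = 3). AGM were tumor-free adrenal glands of MYCN +/-, CRE + mice (n = 5). TI were neuroblastoma tumors of IGF2BP1 mice with CRE +, of which 7 were +/+ and 1 was +/- (n = 8). TIM were neuroblastoma tumors with the genotype IMP1/MYCN, CRE + (n = 8), where IMP1 is another name of IGF2BP1. IGF2BP1 is an RNA-binding protein that stabilizes mRNAs, and MYCN is a transcription factor of the MYC family. The transgenes lay at *Rosa26* behind a stop cassette that Cre under the *Dbh* promoter removed, so that they were switched on in noradrenergic cells of the sympatho-adrenal lineage. All TI and TIM mice carried this Cre, as did AGM, and AG mice did not. By the labels, 1 of 8 TI and 2 of 8 TIM tumors came from the adrenal gland and 1 TIM tumor from the spine. Ages of the animals were not given in the labels. By the study's text the mice were culled at ages that differed between genotypes, with MYCN mice kept longer than the tumor mice, so that age and group cannot be told apart.

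Regulated exocytosis works by proteins that zip a vesicle to its target membrane. VAMP2 on the vesicle pairs with syntaxin-1A and SNAP-25 on the plasma membrane to form the SNARE complex, complexin holds the partly zipped complex, and synaptotagmin-1 triggers fusion when calcium enters. Synaptophysin, SV2 proteins, synapsin and RAB3A sit on the vesicle and act in its assembly, storage and docking. Neurons use this machinery to release transmitter, and chromaffin cells of the adrenal medulla use much of it to release catecholamines from dense-core granules. Synaptophysin is a usual immunohistochemical marker of neuroblastoma.

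The sequence before the start site is shown for *Syn1*, *Cplx1* and *Sv2c*, since *Syn1* held the rarest motif searched, and *Cplx1* and *Sv2c* had the highest ratios of TI to AG levels. The sequences are from RefSeq on GRCm38.p6, on the strand of the gene, 250 bases up to the base before the start. They lie at chrX:20920919-20921168 (*Syn1*, minus strand), chr5:108550028-108550277 (*Cplx1*, minus strand) and chr13:96132578-96132827 (*Sv2c*, minus strand). Capitals mark matches of the motifs named below on either strand.
Syn1: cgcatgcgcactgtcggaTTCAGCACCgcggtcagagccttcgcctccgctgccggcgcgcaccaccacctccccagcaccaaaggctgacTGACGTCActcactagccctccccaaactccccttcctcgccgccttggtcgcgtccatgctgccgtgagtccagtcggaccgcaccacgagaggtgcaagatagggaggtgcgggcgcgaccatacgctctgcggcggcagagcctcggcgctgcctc
Cplx1: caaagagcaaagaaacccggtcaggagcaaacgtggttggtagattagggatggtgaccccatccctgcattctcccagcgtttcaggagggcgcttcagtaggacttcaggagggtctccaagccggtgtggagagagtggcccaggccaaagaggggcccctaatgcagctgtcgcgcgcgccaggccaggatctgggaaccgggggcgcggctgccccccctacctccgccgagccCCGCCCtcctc
Sv2c: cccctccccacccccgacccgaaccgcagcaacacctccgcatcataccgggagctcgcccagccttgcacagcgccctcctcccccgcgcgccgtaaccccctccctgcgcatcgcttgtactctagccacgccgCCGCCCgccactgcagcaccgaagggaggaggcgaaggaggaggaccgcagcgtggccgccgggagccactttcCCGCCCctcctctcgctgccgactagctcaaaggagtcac

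The table of promoters held 10 promoters (300 bases, 250 before to 50 after the start) for 8 of the 10 members. *Snap25* and *Vamp2* had none. The motifs were searched on both strands and did not overlap in the members. The left part of the RE1 site (TTCAGCACC), bound by the neuronal gene repressor REST, was found only in *Syn1* among these members, at -232 to -224 counted from the start site, and in 0.371% of 32851 promoters. The cAMP response element (TGACGTCA) was also found in *Syn1*, at -159 to -152, and in 1.79% of promoters. The GC box (GGGCGG) was found in 7 of the 8 members, all but *Syn1*, and in 35.7% of promoters. Members are counted here by gene, whereas the shares are by promoter. G and C made up 44 to 71.7% of the member promoters, against a median of 52.7% over all promoters. The E-box (CACGTG), which MYC proteins bind, was found in 0 of the 8 members and in 7.15% of promoters.

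Read numbers here were recovered from deposited values made after batch correction, so they are adjusted counts and not sequencing depth. The libraries held 12334076 to 23683176 such reads outside the 126 genes above 1000 FPKM in at least 1 library. None of the 10 genes was among the 126. With all genes the totals were 17434796 to 17893013 reads in AG and 12468968 to 21353172 in TI, but 116740738 to 1170004708 in AGM and 58530450 to 888626365 in TIM, so that the libraries of AGM and TIM stood apart from the others through these genes. The library size that 1 read implied was 74712432 to 133535995 reads. Read numbers behind a value cover counting error only. Libraries are numbered below by the order of their columns within a group, which does not correspond to sample numbers. The labels gave the sequencing run per sample but not per column: AG were all from run 1, AGM all from run 2, TI mostly from run 1 (6 of 8) and TIM from runs 2 and 3, so that for AG against AGM or TIM, run and group cannot be told apart. The transgene transcripts were not checked here. The mouse *Igf2bp1* row stayed at or below 0.0796 FPKM in every library, and mouse *Mycn* was at 0.559 to 1.19 FPKM in glands and 1.2 to 15.6 FPKM in tumors.

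The tissue labels were compared with marker genes. Of 8 adrenal cortex markers, the summed level was 645 to 667 FPKM in AG and 4293 to 5373 FPKM in AGM, but 0.0173 to 10.1 FPKM in TI and 0.281 to 9.28 FPKM in TIM. In AGM vs AG, 8 of the 8 cortex markers were called higher, and in TI vs AG 7 of 8 were called lower. The summed level of 8 chromaffin and sympathoblast markers was 182 to 1602 FPKM in TI and 198 to 3905 FPKM in TIM. It was 89.1 to 129.1 FPKM in AG glands and 1088 to 2085 FPKM in AGM glands, where 5 of the 8 were called higher than in AG. In TI vs AG, 4 of the 8 were called higher (24.6% of tested genes), and in TIM vs AG also 4 (22.5%), with none lower in either. Adipocyte markers were lower in TI vs AG and in TIM vs AG for 4 of 4, with summed levels of 0.167 to 2.27 FPKM (TI) and 0.0377 to 48.4 FPKM (TIM) against gland levels of 68.6 to 659 FPKM (AG) and 158 to 409 FPKM (AGM). Endothelial markers were lower for 2 of 4 in TI vs AG and 4 of 4 in TIM vs AG, with sums of 1.90 to 17.7 FPKM (TI) and 0.755 to 6.48 FPKM (TIM) against 13.8 to 14.7 FPKM (AG) and 9.23 to 11.2 FPKM (AGM). The sum of 5 exocrine pancreas markers was at most 0.0384 FPKM in AG and 0.736 FPKM in TI but up to 3586320 FPKM in TIM and 385599 FPKM in AGM, and of 2 tested *Cpa1* was called higher in TIM vs AG (7.34, limma FDR 0.0438) and TIM vs TI. All 5 endocrine pancreas markers were at 0 in AG, and their highest sum was 3620 FPKM for TIM, against 180 FPKM for TI and 21.2 FPKM for AGM. Nearly all of these sums was *Sst*, whereas *Ins1*, *Ins2*, *Gcg* and *Iapp* stayed at or below 0.811 FPKM in every library. Schwann and sustentacular markers summed to 0.360 to 23.3 FPKM (TIM) and 0.257 to 1.28 FPKM (TI), against 2.86 to 5.28 FPKM (AG) and 1.09 to 4.10 FPKM (AGM). Fibroblast, leukocyte and central glia markers overlapped between AG and both tumor groups in their sums. In TI vs AG, 2 of 4 fibroblast markers were lower and 1, *Col1a1*, was higher (1.55, limma FDR 0.0198). Of 3 leukocyte markers tested, 1 was lower in TI vs AG. In bulk tissue, fewer cells of a type and less RNA per cell cannot be told apart, and the part of cell composition in the differences below was not tested.

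**Figure D1:**
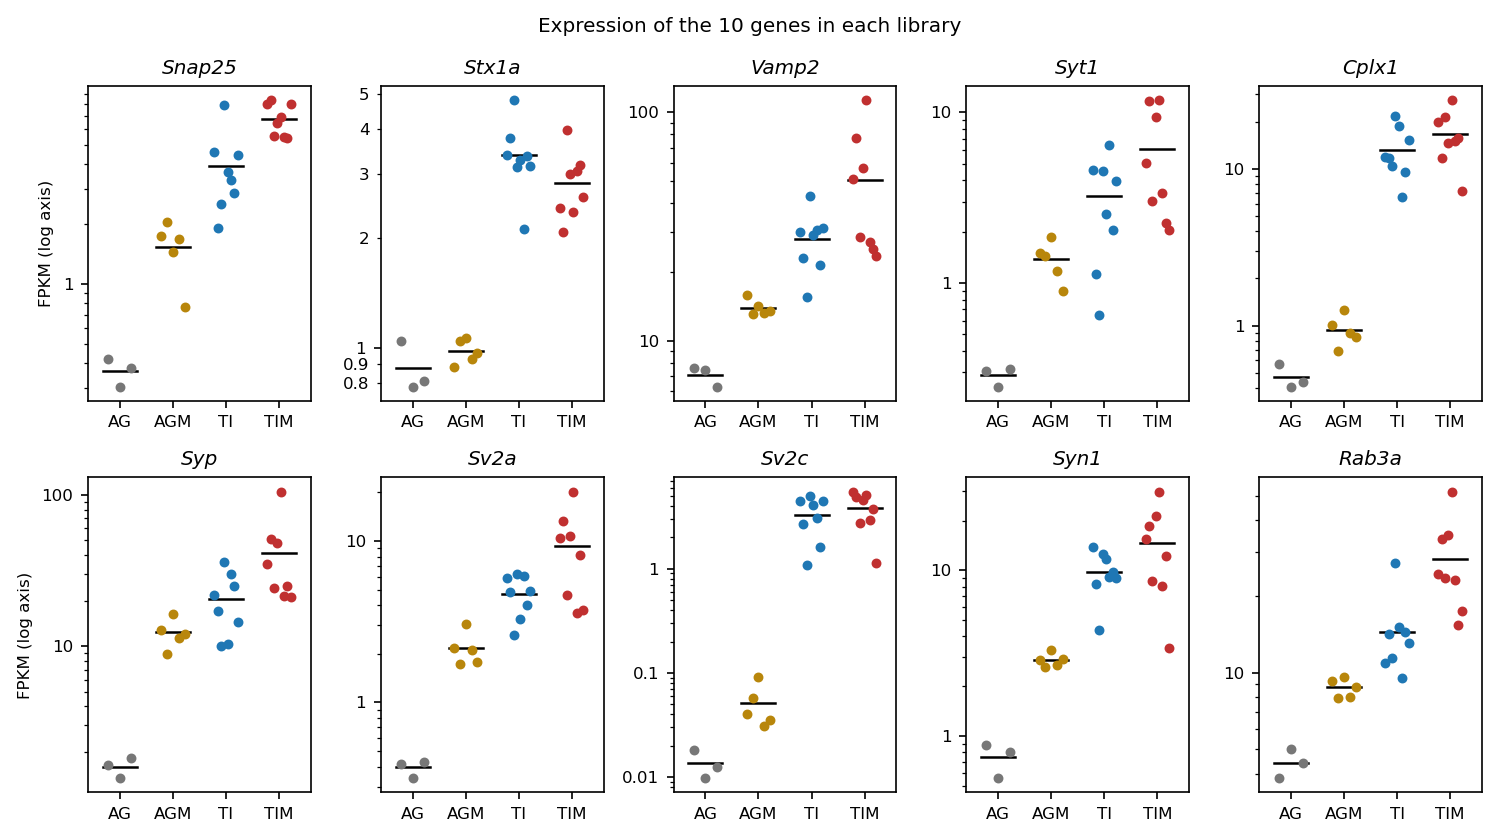
FPKM (log axis) of each of the 10 genes in every library of AG (n = 3), AGM (n = 5), TI (n = 8) and TIM (n = 8), where each point is a library and the bar is the group mean. Every TI and TIM library lay above every AG library for all 10 genes, and *Sv2c* showed the widest gap, with a mean of 0.0136 FPKM in AG and 3.30 FPKM in TI.

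*Snap25* (chr2:136533580-136624362, GENCODE M39 on GRCm39, as all gene positions here) encodes the plasma membrane SNARE that contributes a pair of helices to the complex. It was at 0.305, 0.376 and 0.417 FPKM in AG and at 0.761, 1.45, 1.68, 1.73 and 2.04 FPKM in AGM. TI ranged from 1.91 to 7.89 FPKM (median 3.48) and TIM from 5.40 to 8.37 FPKM (median 6.66). All AGM libraries were above all AG libraries, 7 of 8 TI libraries were above all AGM libraries, and TIM was the most even tumor group for this gene (coefficient of variation 18.5%, against 47.6% in TI). The difference was 1.76 ± 0.23 (SE) in TI vs AG (limma FDR 9.92e-07) and 0.73 ± 0.17 in TIM vs TI (limma FDR 0.00448).

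*Stx1a* (chr5:135052139-135079963) encodes syntaxin-1A, the other SNARE of the plasma membrane. It was at 0.780, 0.809 and 1.04 FPKM in AG and at 0.883, 0.927, 0.968, 1.04 and 1.06 FPKM in AGM. TI ranged from 2.12 to 4.80 FPKM (median 3.33) and TIM from 2.08 to 3.98 FPKM (median 2.81). Gland groups overlapped, tumor groups overlapped, and every tumor library was above every gland library. The rise was 1.21 ± 0.14 (SE) in TI vs AG (limma FDR 1.47e-07) and 1.02 ± 0.14 in TIM vs AG (limma FDR 1.85e-06). *Stx1a* was the only member with a lower mean in TIM (2.84 ± 0.60 FPKM, SD, n = 8) than in TI (3.38 ± 0.74 FPKM), and this difference of -0.19 did not pass the threshold (limma FDR 0.19), but did when TI library 6 was left out (-0.26, limma FDR 0.0435).

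*Vamp2* (chr11:68979316-68983210) encodes the vesicle SNARE synaptobrevin-2 and was the most abundant member in every group. It was at 6.29, 7.46 and 7.55 FPKM in AG and at 13, 13.2, 13.4, 14.1 and 15.8 FPKM in AGM. TI ranged from 15.5 to 42.8 FPKM (median 29.5) and TIM from 23.4 to 112.9 FPKM (median 39.9). AGM lay between AG and the tumors, touching TI in 1 library only. The rise was 1.79 ± 0.36 (SE) in TI vs AG (limma FDR 0.000239) and 2.45 ± 0.36 in TIM vs AG (limma FDR 5.57e-06).

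*Syt1* (chr10:108333505-108846856) encodes the calcium sensor that triggers fast fusion. It was at 0.247, 0.306 and 0.312 FPKM in AG and at 0.892, 1.17, 1.44, 1.5 and 1.86 FPKM in AGM. TI ranged from 0.649 to 6.43 FPKM (median 3.25) and TIM from 2.05 to 11.8 FPKM (median 4.19). *Syt1* was the most uneven member in TI, where its highest library held 9.91 times its lowest. The rise was 1.56 ± 0.44 (SE) in TI vs AG (limma FDR 0.00491) and 2.23 ± 0.44 in TIM vs AG (limma FDR 0.000197).

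*Cplx1* (chr5:108666416-108697899) encodes complexin-1, which binds the assembled SNARE complex. It was at 0.408, 0.439 and 0.566 FPKM in AG and at 0.686, 0.840, 0.897, 1 and 1.26 FPKM in AGM. TI ranged from 6.65 to 21.9 FPKM (median 11.8) and TIM from 7.28 to 27.5 FPKM (median 15.4). The gap between gland and tumor libraries was wide: mean FPKM was 1.99 times higher in AGM than in AG, and 14.2 times higher in TI than in AGM. Its rise of 3.21 ± 0.29 (SE) in TI vs AG was the largest of the members (limma FDR 3.7e-09). In TIM vs AG it rose by 3.51 ± 0.29 (limma FDR 7.99e-10).

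*Syp* (chrX:7504710-7519499) encodes synaptophysin, an abundant membrane protein of synaptic vesicles that binds VAMP2. It was at 1.35, 1.64 and 1.82 FPKM in AG and at 8.91, 11.4, 12.1, 12.8 and 16.4 FPKM in AGM. TI ranged from 9.98 to 35.8 FPKM (median 19.4) and TIM from 21.2 to 104.7 FPKM (median 30.0). AGM glands were clearly apart from AG and overlapped TI, with 5 of 8 TI libraries above all AGM libraries. The rise was 2.93 ± 0.40 (SE) in TI vs AG (limma FDR 1.94e-06), 3.82 ± 0.40 in TIM vs AG (limma FDR 3.58e-08) and 2.34 ± 0.43 in AGM vs AG (limma FDR 0.000281).

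*Sv2a* (chr3:96088467-96106005) and *Sv2c* (chr13:96091102-96269085) encode relatives of membrane transporters that are found on synaptic vesicles and dense-core granules. *Sv2a* was at 0.340, 0.418 and 0.431 FPKM in AG and at 1.73, 1.79, 2.1, 2.18 and 3.04 FPKM in AGM. *Sv2a* in TI ranged from 2.62 to 6.20 FPKM (median 4.86) and in TIM from 3.59 to 20.1 FPKM (median 9.28). It rose by 2.00 ± 0.34 (SE) in TI vs AG (limma FDR 3.61e-05) and by 2.70 ± 0.34 in TIM vs AG (limma FDR 6.57e-07).

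*Sv2c* was nearly silent in glands, at 0.0098, 0.0126 and 0.0183 FPKM in AG, which were 10 to 19 reads per library. AGM held 0.0310, 0.0357, 0.0407, 0.0573 and 0.0912 FPKM (26 to 71 reads). TI ranged from 1.09 to 4.97 FPKM (median 3.55, 1063 to 5241 reads) and TIM from 1.14 to 5.46 FPKM (median 4.14). Its mean FPKM in TI was 243 times that in AG and 64.4 times that in AGM, the widest ratio of the members. As log2(FPKM + 1), a scale on which changes at low levels appear too small, the rise was 2.00 ± 0.29 (SE) in TI vs AG (limma FDR 4.92e-06) and 2.17 ± 0.29 in TIM vs AG (limma FDR 1.59e-06). With a pseudocount of 0.1 or on recovered reads this rise was larger, up to 7.76 in TI vs AG. The relative *Sv2b* stayed at or below 0.338 FPKM in every library and was below the filter.

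*Syn1* (chrX:20726750-20787397) encodes synapsin-1, which ties vesicles of the reserve pool to each other and to actin. It was at 0.559, 0.805 and 0.884 FPKM in AG and at 2.61, 2.71, 2.88, 2.94 and 3.31 FPKM in AGM. TI ranged from 4.39 to 13.8 FPKM (median 9.47) and TIM from 3.4 to 29.8 FPKM (median 13.8). Every tumor library was above every gland library, with TIM library 8 the lowest tumor. The rise was 2.58 ± 0.38 (SE) in TI vs AG (limma FDR 5.85e-06) and 2.96 ± 0.38 in TIM vs AG (limma FDR 8.98e-07). *Timp1* lies inside *Syn1* on the opposite strand, and *Araf* overlaps it too. *Timp1* was lower in TI than in AG (-0.61, limma FDR 0.0314), while *Syn1* was higher. The strand setting of the read counting was not given in the sources used here.

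*Rab3a* (chr8:71207238-71211333) encodes the small GTPase that brings vesicles to release sites. It was at 3.84, 4.42 and 5.00 FPKM in AG and at 7.95, 8.04, 8.78, 9.29 and 9.65 FPKM in AGM. TI ranged from 9.54 to 27.2 FPKM (median 13.6) and TIM from 15.5 to 51.7 FPKM (median 24.1). The groups followed each other with little overlap, 7 of 8 TI libraries being above all AGM libraries. The rise was 1.46 ± 0.28 (SE) in TI vs AG (limma FDR 0.000118) and 2.34 ± 0.28 in TIM vs AG (limma FDR 2.3e-07). *Rab3a* overlaps *Mpv17l2*, and *Sv2a* overlaps *Bola1*, in each case on the opposite strand.

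In TI vs AG, 10 of 10 members were called higher and the median difference was 1.89. Among the 10171 genes tested, 24.6% were called higher, 27.7% were called lower, and the median difference was -0.0021. Every TI library exceeded every AG library for 10 of 10 members and for 23.8% of tested genes. In TIM vs AG, which shares the AG libraries, 10 of 10 members were again called higher (22.5% of tested genes), with a median of 2.47 and no overlap for any of the 10 (17.8% of tested genes). *Cplx1* and *Sv2c* reached the filter of 1 FPKM in 3 libraries only through tumors, and the other 8 would have passed in glands alone. Leaving out any 1 library of these groups kept all 10 calls in both comparisons.

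**Figure D2:**
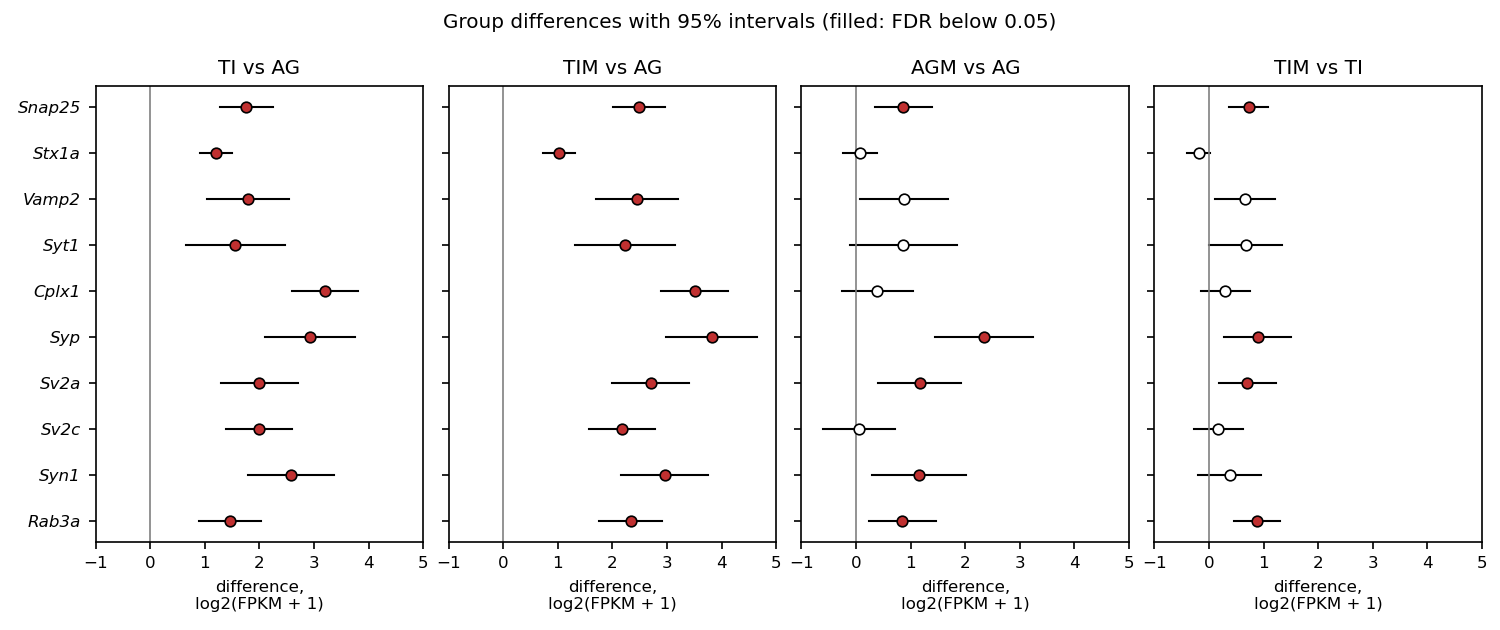
Difference in mean log2(FPKM + 1) of the 10 genes (x axis) with 95% intervals from the limma fit, in 4 comparisons, where filled points have an FDR below 0.05. All 10 are filled in TI vs AG and TIM vs AG, 5 in AGM vs AG and 4 in TIM vs TI.

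The comparison of AGM with AG asked whether glands that carried MYCN but no tumor already differed. *Syp* (2.34), *Sv2a* (1.17), *Syn1* (1.15), *Snap25* (0.87) and *Rab3a* (0.85) were called higher, so that 5 of 10 members passed, beside 14.6% of tested genes higher and 14% lower. *Vamp2* (0.88, limma FDR 0.0945) and *Syt1* (0.87, limma FDR 0.179) had differences of like size that did not pass. *Cplx1* (0.39, 95% interval -0.26 to 1.05), *Stx1a* (0.08, -0.23 to 0.39) and *Sv2c* (0.05, -0.60 to 0.71) did not pass either, on a scale that shrinks differences at low levels. The mean of *Sv2c* was 3.77 times higher and that of *Stx1a* 1.11 times higher in AGM than in AG. For 9 of 10 members, all but *Stx1a*, every AGM library was above every AG library, as for 29.4% of tested genes. The count of 5 called members depended on single libraries and on the estimate of the spread. It was 2 without AG library 1 or 3, 1 without AG library 2, and 3 without AGM library 1, 3 or 5. *Syp* was the member called in all of these. When only AG and AGM set the spread, without the tumors, 9 of 10 members were called. When FPKM were recomputed per 1000000 reads outside the genes above 1000 FPKM, the median of all genes shifted by -0.41 in AGM vs AG, *Rab3a* fell to 0.50 (limma FDR 0.16) and *Stx1a* turned to -0.26 (limma FDR 0.34).

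The vesicle genes were also set against *Dbh*, the noradrenaline-synthesizing enzyme and the gene whose promoter drove Cre. *Dbh* itself was at 10.9 to 15.7 FPKM in AG and 68.5 to 100.5 FPKM in AGM. The median ratio to *Dbh* was higher in TI than in AG for 7 members and lower for *Stx1a* (0.0391 against 0.0665), *Vamp2* (0.361 against 0.482) and *Rab3a* (0.204 against 0.288). TI and AG overlapped for these 3 and, of the 7, for *Snap25*, *Syt1*, *Cplx1*, *Syp*, *Sv2a* and *Syn1*. The ratio of *Sv2c* to *Dbh* was 0.0123 to 0.123 in TI and 0.000823 to 0.00116 in AG, without overlap, while for *Cplx1* it was 0.0270 to 0.550 in TI and 0.0286 to 0.0374 in AG. In AGM the ratio lay below AG without overlap for 5 members, namely *Stx1a* (0.00983 to 0.0152 against 0.0527 to 0.0715), *Vamp2* (0.140 to 0.190 against 0.410 to 0.684), *Rab3a*, *Cplx1* and *Syn1*. It lay above AG for *Syp* alone (0.128 to 0.163 against 0.105 to 0.123), and the groups overlapped for *Snap25*, *Syt1*, *Sv2a* and *Sv2c*. These ratios were not tested.

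Against AGM glands, 8 of 10 members were higher in TI (36.2% of tested genes). *Syp* (0.59 ± 0.34 SE, limma FDR 0.121) and *Syt1* (0.69 ± 0.37, limma FDR 0.0989) were not called. *Cplx1* (2.81) and *Sv2c* (1.95) led, followed by *Syn1* (1.43) and *Stx1a* (1.13). For these 4 members every TI library was above every AGM library, as for 25.4% of tested genes, and for the other 6 the groups overlapped. In TIM vs AGM, 10 of 10 were called higher (31.9% of tested genes) and none overlapped (14.5% of tested genes). The order of the groups by mean was AG, AGM, TI and TIM for 9 members, and AG, AGM, TIM and TI for *Stx1a*. Neighbours in this order overlapped between AG and AGM for *Stx1a* only, between AGM and TI for 6 members, and between TI and TIM for all 10.

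TIM tumors, with IMP1 and MYCN, were compared with TI tumors. Of TI, 7 of 8 were +/+ for IGF2BP1, whereas by the study's genotyping TIM held both transgenes and no unaltered *Rosa26* allele, so that MYCN and the dose of IGF2BP1 cannot be told apart here. *Rab3a* (0.88 ± 0.20 SE, limma FDR 0.00433), *Snap25* (0.73 ± 0.17, limma FDR 0.00448), *Syp* (0.89 ± 0.30, limma FDR 0.0333) and *Sv2a* (0.70 ± 0.25, limma FDR 0.0482) were higher. These were 4 of 10 members, beside 10% of tested genes higher and 12.9% lower. No member had every TIM library above every TI library, as had 0.767% of tested genes. *Vamp2* (0.66, limma FDR 0.0762) and *Syt1* (0.67, limma FDR 0.139) missed the threshold. *Cplx1* (0.30, 95% interval -0.15 to 0.75), *Sv2c* (0.17, -0.27 to 0.62) and *Syn1* (0.38, -0.21 to 0.96) did not pass either. *Rab3a* and *Snap25* were called under every alternative that tested them. The count fell to 2 without TI library 2, 3, 5 or 8 or TIM library 2, 4 or 5, and when only TI and TIM set the spread, and *Sv2a* passed in 5 of 21 alternatives. Most TI samples were from run 1 and no TIM sample was, and a within-run value could not be had since columns were not tied to runs.

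The interaction, the difference of TIM vs AGM from TI vs AG, was called for 0 of 10 members in limma, with 1 of 10 at an unadjusted p below 0.05, beside 10% of tested genes called. That member was *Syp* (-1.45, 95% interval -2.53 to -0.37, limma FDR 0.0825). It was called with a pseudocount of 0.1 (-1.93, limma FDR 0.0326) and without TIM library 5 (-1.67, limma FDR 0.0115).

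In AG, mean FPKM fell from *Vamp2* (7.10 ± 0.71, SD, n = 3) through *Rab3a* (4.42 ± 0.58) and *Syp* (1.60 ± 0.24) to *Syt1* (0.288 ± 0.036) and *Sv2c* (0.0136 ± 0.0043). In TI, *Vamp2* (27.9 ± 8.1, SD, n = 8), *Syp* (20.5 ± 9.3), *Rab3a* (14.5 ± 5.5) and *Cplx1* (13.3 ± 5.1) led, with *Cplx1* in place 4 after place 6 in AG. *Snap25* (3.89 ± 1.85), *Stx1a* (3.38 ± 0.74), *Sv2c* (3.30 ± 1.43) and *Syt1* (3.23 ± 1.97) lay within their spread of each other. The ratio of *Vamp2* to *Snap25*, both partners of the SNARE complex, was 2.91 to 16.4 in TIM and 5.42 to 12.1 in TI, against 16.7 to 24.5 in AG. The ratio of *Snap25* to *Stx1a* was 0.391 to 0.465 in AG and 1.38 to 4.02 in TIM. These ratios were chosen after their values were seen.

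**Figure D3:**
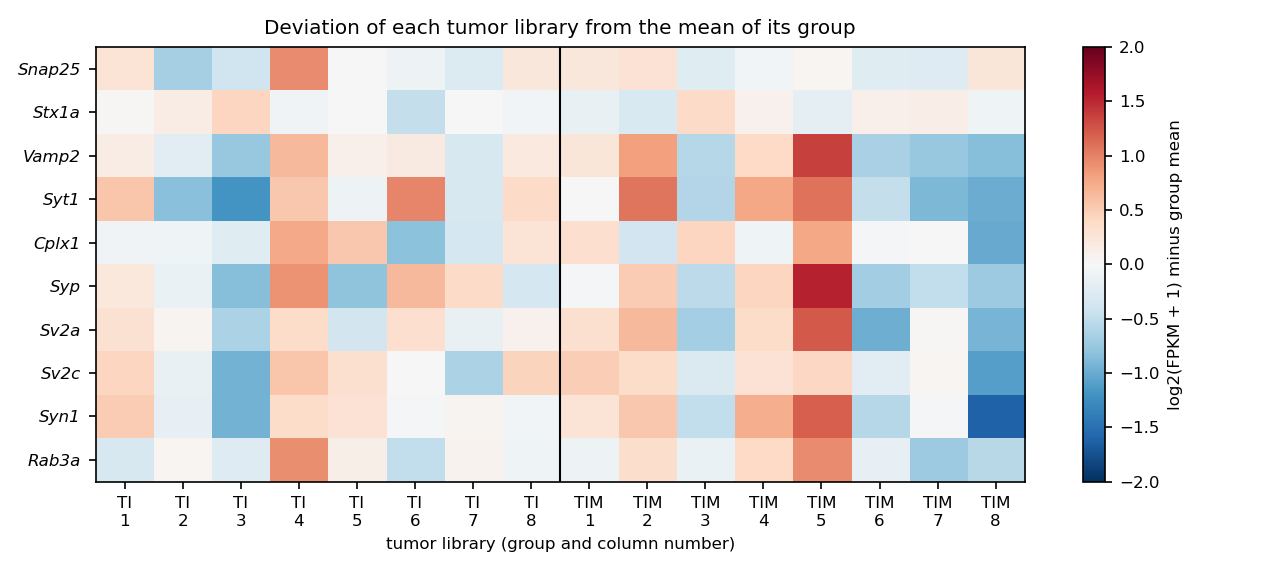
Deviation of log2(FPKM + 1) of the 10 genes (rows) in each of 16 tumor libraries (columns, group and column number) from the mean of its group. TI library 4 and TIM library 5 were each the highest of their group for 7 of 10 genes, TI library 3 and TIM library 8 the lowest for 6, and the row of *Stx1a* runs against most others.

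Tumors of 1 group differed along with each other in most members. The summed FPKM of the 10 genes was 90.4 to 373 in TIM and 63.4 to 167 in TI, against 39.5 to 52.2 in AGM and 15.7 to 16.7 in AG. TI library 4 was highest of TI for 7 of 10 members and TIM library 5 highest of TIM for 7. TIM library 5 also had the highest *Dbh* (593 FPKM), *Th* (1889 FPKM), *Chga* (1266 FPKM) and *Sox10* (15.3 FPKM) of its group, and the part of these in its values was not tested. *Sox10*, a marker of Schwann and sustentacular cells, was at 0.167 FPKM or less in all AG libraries. After subtraction of group means, Spearman's rho over the 16 tumors was above 0.5 for 24 of 45 pairs of members, with a median of 0.54. It was highest for *Vamp2* with *Sv2a* (0.92) and with *Syt1* (0.91). *Stx1a* had negative values with *Syt1* (-0.69), *Snap25* (-0.67) and *Vamp2* (-0.62). Points share their library and its scaling, so these are descriptions without a test.

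The genes with the most similar course over the 16 tumors were named by Spearman's rho, again after subtraction of group means. None of the 30 genes so named (3 per member) was a member or on the list of other vesicle genes. For *Syp* they were *Txndc5* (0.988), *Cpe* (0.962) and *Camk2n2* (0.953). For *Syn1* they were *Map1s* (0.979), *Grin1* (0.959) and *Rsph3a* (0.953). For *Vamp2* they were *Ube2j1* (0.965), *Spryd3* (0.962) and *Fam189b* (0.959). For *Sv2a* they were *Zdhhc8* (0.971), *Habp4* (0.968) and *Nckipsd* (0.968), and for *Syt1* *Ipo4* (0.968), *Slc25a44* (0.959) and *Spock2* (0.935). The values were lower for *Rab3a* (*Arhgdig* 0.891, *Eno2* 0.882, *Deaf1* 0.876), *Snap25* (*Wdr47* 0.909, *Nap1l3* 0.885, *Scrn1* 0.874) and *Sv2c* (*Coro7* 0.906, *Rab11fip5* 0.891, *Snx9* 0.888). *Stx1a* was closest to *Cbln1* and *Pdzd4* (both 0.941) and *Nutf2* (0.935), and *Cplx1* to *Mtus1* (0.938), *Pik3cd* (0.906) and *Nrarp* (0.891).

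A wider list held 111 other genes of vesicle release, of which 110 were in the table and 76 passed the filter. Of these, 25 passed only with the help of tumors, so that the counts against AG are no support for a rise and are given as a description. In TI vs AG, 44 of the 76 were called higher (24.6% of tested genes) and 11 lower (27.7%), with a median difference of 0.63. Of the 51 that passed in glands alone, 23 were higher and 11 lower. Of all 8097 tested genes that passed in glands alone, 1293 were higher and 2817 lower. In TIM vs AG, 46 were higher (22.5% of tested genes) and 12 lower (28.5%), with a median of 0.91. There, 24 of the 51 were higher and 12 lower, beside 1217 higher and 2867 lower of the 8097. In AGM vs AG, 20 were higher (14.6% of tested genes) and 3 lower (14%), with a median of 0.36. In TIM vs TI 14 were higher (10% of tested genes) and 4 lower (12.9%), with a median of 0.15. The AGM count dropped to 14 without AG library 1 or 3 and to 13 without AG library 2, and the TIM vs TI count rose to 28 without TIM library 8. The interaction was called for 1 higher and 7 lower of the 76, a share near the 10% of tested genes called, and the count dropped to 4 without any 1 AG library and to 5 without AGM library 1 or 5.

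**Figure D4:**
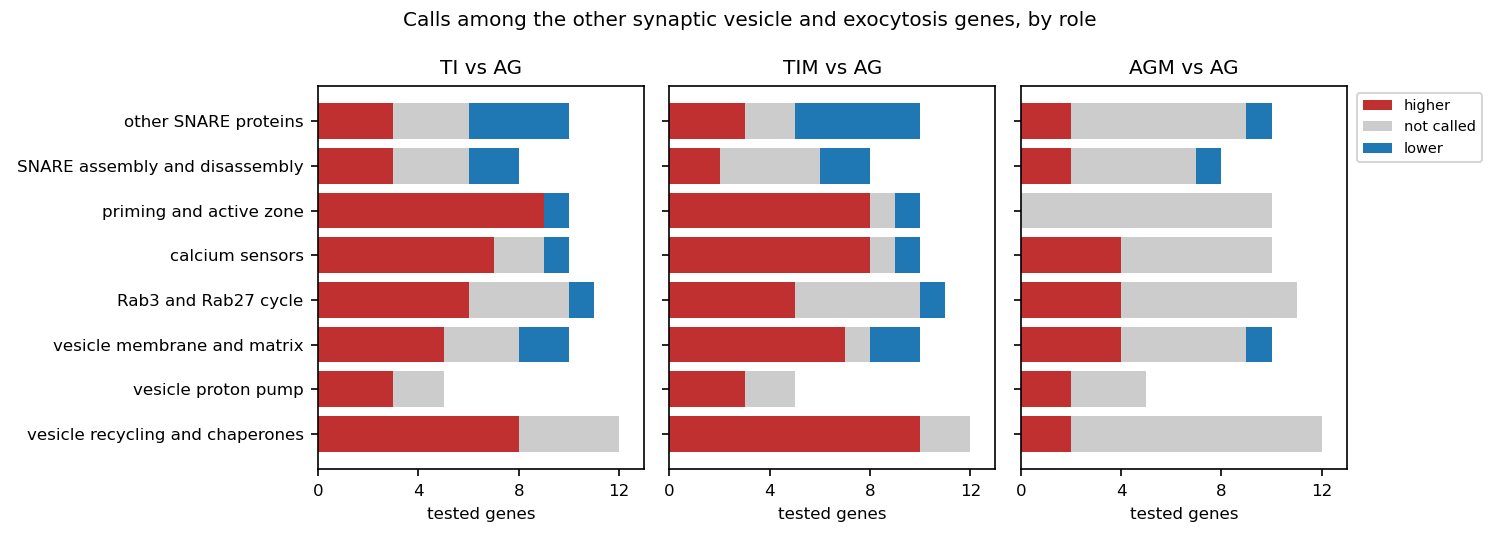
Number of tested genes (x axis) called higher, not called or called lower in each role group of the wider list, in TI vs AG, TIM vs AG and AGM vs AG. Priming and active zone genes were called higher for 9 of 10 in TI vs AG, of which 8 had passed the filter only with tumors, and SNARE proteins other than the members split into 3 higher and 4 lower in TI vs AG.

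Genes of priming and the active zone, which make vesicles ready for release, were called higher in TI vs AG for 9 of 10 tested. Of the 10, 8 passed the filter only through tumors, where they had to reach 1 FPKM, so this count is no support. The other 2 were *Rims3*, which rose by 1.35 (limma FDR 0.000173), and *Rims4*. *Ppfia2* (1.49, liprin-alpha-2) and *Ppfia3* (1.35) rose most, and *Unc13a*, the priming factor MUNC13-1, rose by 1.13. *Rims4* fell by 2.05, with a mean of 2.24 ± 1.23 FPKM (SD, n = 8) in TI against 11.5 ± 0.28 FPKM (n = 3) in AG. None of the 10 was called in AGM vs AG by limma, with 1 of 10 at an unadjusted p below 0.05, though every AGM library was above every AG library for 7 of 10 (29.4% of tested genes). The levels were low there, as for *Unc13a* with a mean of 0.136 FPKM in AG and 0.466 FPKM in AGM.

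Synaptotagmin and DOC2 genes, grouped as calcium sensors, were called higher for 7 of 10 and lower for 1 in TI vs AG. Whether each of them binds calcium was not checked. Among tested genes, 24.6% were called higher and 27.7% lower. Of the 10, 3 passed the filter only with tumors, and of the other 7, 4 were higher and 1 lower. *Syt11* (2.87 ± 0.19 SE) and *Syt17* (2.14 ± 0.23) rose most. *Syt12* went the other way, with 0.012 ± 0.0121 FPKM (SD) in TI, below AG (0.918 ± 0.026 FPKM) and AGM (4.82 ± 0.25 FPKM). In TIM vs TI, *Syt5* (1.47, limma FDR 0.00859) and *Syt4* (1.33, limma FDR 0.00344) were higher, while *Doc2b* (-0.88), *Syt17* (-0.49) and *Syt16* (-0.43) were lower.

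Of the RAB3 and RAB27 cycle, 6 of 11 were called higher (24.6% of tested genes) and 1 lower (27.7%) in TI vs AG. Of the 11, 3 passed the filter only with tumors, and of the other 8, 4 were higher and 1 lower. *Sytl4*, a RAB27 effector on granules also named granuphilin, rose by 3.57 ± 0.48 (SE), and *Rab3b* by 2.23 ± 0.37. *Rab3c* rose by 0.80 in TI vs AG and was not called in TIM vs AG (0.51, limma FDR 0.0558). *Rab3d* fell by 1.19. *Sytl5* was at 161 to 1325 FPKM in AGM and below 0.05 FPKM in every other library, and is 1 of the 126 genes whose values reached 1000 FPKM. AGM samples were all from run 2, and the part of the run in these values was not tested.

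Chaperones and recycling proteins were higher for 8 of 12 in TI vs AG (24.6% of tested genes), with none lower. In TIM vs AG they were higher for 10 of 12 (22.5% of tested genes), again with none lower. Of the 12, 6 passed the filter only with tumors, so these counts are no support for a rise. Of the other 6, 4 were higher in each comparison. *Sncb*, beta-synuclein, rose by 2.31 ± 0.34 (SE) and *Dnm1*, the dynamin that pinches off vesicles, by 2.12 ± 0.46 in TI vs AG. *Dnm1* was also higher in AGM vs AG (1.62, limma FDR 0.0174). *Amph*, amphiphysin, was at 0.00489 to 0.745 FPKM in TI and at 1.75 to 11.3 FPKM in TIM, without overlap (2.11 ± 0.22 SE in TIM vs TI, limma FDR 1.73e-06).

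Vesicle membrane and matrix genes were higher for 5 of 10 (24.6% of tested genes) and lower for 2 (27.7%) in TI vs AG. Of the 10, 1 passed the filter only with tumors. *Syngr3*, synaptogyrin-3, rose by 2.91 ± 0.34 (SE) and *Syn2* by 2.04 ± 0.46, whereas *Syngr2*, the form found in many tissues, fell by 1.2. *Syngr1* was higher in AGM vs AG (1.57, limma FDR 0.00121). *Slc17a6*, the glutamate transporter VGLUT2, ranged from 0 to 171 FPKM in TIM and stayed at or below 0.0037 FPKM in TI. It was at 1.29 to 17.1 FPKM in AGM glands and at most 0.00176 FPKM in AG. How far the sequencing run accounts for this was not tested. The difference in TIM vs TI was 4.19 ± 0.93 SE (limma FDR 0.00323), a call that was lost with limma-voom on recovered reads (limma FDR 0.62). *Syn3* stayed at or below 0.207 FPKM in all libraries and was below the filter. Of 5 subunits of the vesicle proton pump, 3 were higher in TI vs AG (24.6% of tested genes), and 1 of the 5 passed the filter only with tumors. *Atp6v1b2* was higher in TI vs AG (1.61), AGM vs AG (1.46) and TIM vs TI (1.37).

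The SNARE proteins outside the members were called higher for 3 of 10 (among them *Snap47* 0.61 and *Vamp4* 0.39) and lower for 4 (*Vamp8* -2.0, *Snap23* -0.94, *Stx4a* -0.65, *Stx2* -0.42) in TI vs AG. Among tested genes, 24.6% were called higher and 27.7% lower. *Snap23*, *Vamp8* and *Stx4a* serve exocytosis in non-neuronal cells. In TIM vs AG these 4 and *Snap29* were lower, with *Vamp8* at -2.05 and *Snap23* at -0.997. *Vamp1* (-0.29, limma FDR 0.157) and *Vamp3* (0.20, limma FDR 0.327) did not pass in TI vs AG, though *Vamp1* was called lower with limma-voom on recovered reads (-1.21, limma FDR 0.0404). SNARE assembly and disassembly genes were split too, with 3 of 8 called higher and 2 lower: *Napb* rose by 1.35 ± 0.15 (SE), and *Stxbp2* fell by 1.10 and *Stxbp3* by 0.80. *Cplx2*, the relative of *Cplx1*, was higher in TI vs AG (1.31, limma FDR 0.037) and not called in TIM vs AG (0.48, limma FDR 0.46). The calls of *Cplx2* and *Snap47* in TI vs AG were lost when any 1 AG library was left out.

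**Figure D5:**
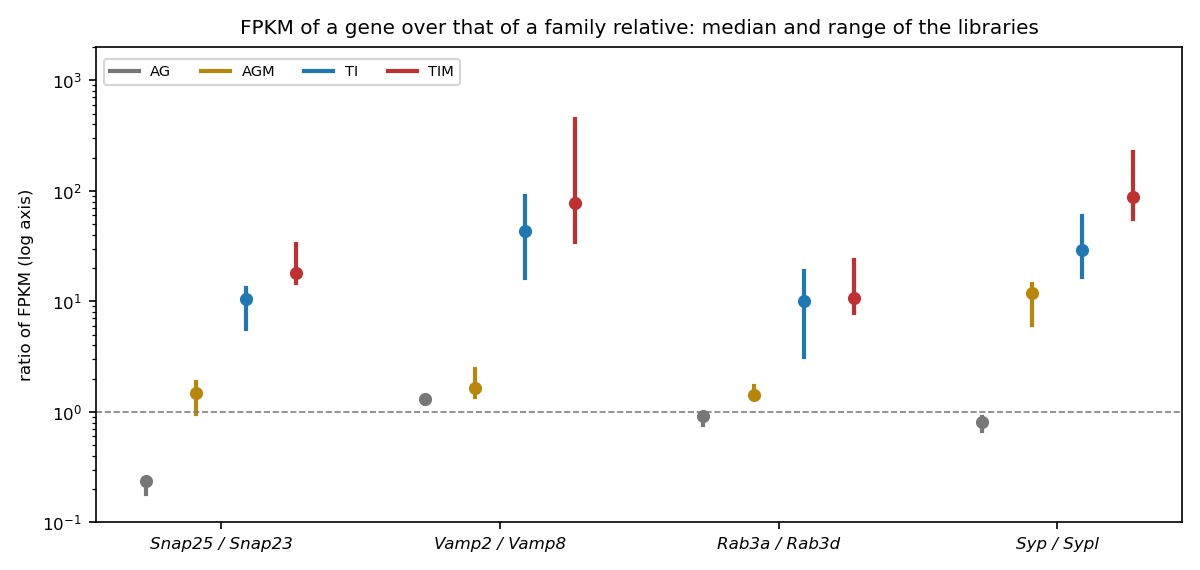
Ratio of the FPKM of a gene to that of a relative (log axis), with the median (point) and the lowest to highest library (line) of AG, AGM, TI and TIM. *Snap25* to *Snap23* rose from a median of 0.235 in AG to 10.4 in TI and 18.0 in TIM.

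Ratios within a library, which do not depend on its scaling, put these pairs side by side, chosen after their values were seen. *Snap25* to *Snap23* was 14.7 to 32.8 in TIM and 5.58 to 13.1 in TI, against 0.947 to 1.88 in AGM and 0.18 to 0.24 in AG, so that none of the 4 groups overlapped. *Vamp2* to *Vamp8* was 1.17 to 1.36 in AG and 1.37 to 2.44 in AGM, but 16.1 to 90.1 in TI and 34.5 to 451 in TIM. *Syp* to its relative *Sypl* was 55.6 to 226 in TIM and 16.7 to 59.6 in TI, against 6.14 to 14.4 in AGM and 0.677 to 0.890 in AG. In *Snap25* and *Syp* the glands with MYCN stood between AG and the tumors, while in *Vamp2* they stood near AG.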

How the data were processed

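Messenger RNA of 24 mouse samples in 4 groups was sequenced. Per the submitters' processing notes, reads were trimmed with cutadapt (2.8), aligned to mm39 with HISAT2 (2.1.0) and counted with featureCounts (2.0.0). The authors corrected counts for batch with ComBat-seq, scaled them by TMM (edgeR 3.40) and deposited FPKM. The 9 columns of their own fold changes, p-values and FDR were not used. Columns carry a group name only.

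limma (3.58.1, R 4.3.3, with trend) was run on log2(FPKM + 1) for 10171 genes that reached 1 FPKM in 3 or more libraries. The 24 libraries shared 1 estimate of the spread, without covariates. P-values were adjusted over all tested genes (Benjamini-Hochberg, threshold FDR 0.05), and the script was tested on simulated data. Reads were recovered from FPKM and length, and 100% of values were whole within 0.1 reads. By the study's text, IGF2BP1/MYCN mice could bear several tumors each. Whether samples share an animal or a litter is not given in the labels, so p-values measure the spread between these samples. That spread is what the authors' batch correction left, and the fit had no term for this correction.

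Members and lists were chosen with earlier results of these data known. Named genes were the members, per role the 2 largest rises and the largest fall in TI vs AG, the 5 largest changes in TIM vs TI and in AGM vs AG, family relatives, and 3 similar genes per member. *Unc13a*, *Vamp4*, *Stx2*, *Stx4a*, *Snap29*, *Stxbp3*, *Doc2b*, *Syt16*, *Sypl* and *Timp1* were named after their values were seen. Alternatives were another pseudocount, other filters, the spread from 2 groups, FPKM recomputed outside genes above 1000 FPKM, limma-voom on recovered reads, and leaving out each library. A few genes that this rule names are not reported here.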

Additional observations from a re-analysis of the deposited data

Results flagged for a closer look

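In 3 of 30 groups of libraries tested (10 genes in AGM, TI and TIM), the highest library lay far from the others of its group by Dixon's criterion at 95%, which chance passes in about 1 in 20 groups. *Snap25* was at 7.89 FPKM in TI library 4, where the gap to the next library was 0.553 of the range. *Rab3a* was at 27.2 FPKM in the same library, with a gap of 0.681 of the range. *Syp* was at 104.7 FPKM in TIM library 5, with a gap of 0.644 of the range. AG, with 3 libraries, was not tested.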

How the results depend on the processing

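No paired analysis was possible because the columns carry no replicate numbers. All 10 members kept their rise in TI vs AG, TIM vs AG and TIM vs AGM under every alternative that tested them. With the filter of 1 FPKM in every library only 3 members were tested, of which 3 were called in TI vs AG, TIM vs AG and TIM vs AGM, 2 in TI vs AGM, 2 in AGM vs AG and 2 in TIM vs TI. That filter left 20 of the wider list, with 12 called in TI vs AG and in TI vs AGM, 11 in TIM vs AG, 8 in TIM vs AGM, 3 in AGM vs AG and 3 in TIM vs TI. With the spread from 2 groups only, 9 members and 53 genes of the wider list were called in AGM vs AG, and 2 members in TIM vs TI. A pseudocount of 0.1 gave 35 genes of the wider list in AGM vs AG. Leaving out single libraries gave 1 to 5 members and 13 to 23 genes of the wider list in AGM vs AG, 2 to 5 members and 15 to 28 genes in TIM vs TI, 8 to 9 members in TI vs AGM, and 10 in the other comparisons. For the interaction, 1 member was called with a pseudocount of 0.1, and 0 to 1 when single libraries were left out. Of the wider list, 0 were called with 1 FPKM in every library, 2 with limma-voom, 5 with a pseudocount of 0.1, 5 with recomputed FPKM and 4 to 10 when single libraries were left out. Recomputed FPKM shifted the median of all genes by -0.41 in AGM vs AG, 0.40 in TI vs AGM, 0.31 in TIM vs AGM, -0.15 in TIM vs AG and -0.12 in TIM vs TI.

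Values that changed direction were all uncalled. *Stx1a* in AGM vs AG turned to -0.26 and the interaction of *Vamp2* to 0.0531 with recomputed FPKM. The interaction of *Sv2c* turned to -0.0885 with recomputed FPKM, -0.17 with a pseudocount of 0.1 and -1.57 with limma-voom, and ranged from -0.0138 to 0.279 when single libraries were left out. That of *Rab3a* turned to -0.0621 with limma-voom and -0.0515 with a pseudocount of 0.1, and ranged from -0.106 to 0.162 when single libraries were left out. That of *Cplx1* then ranged from -0.211 to 0.0517. The causes were not tested.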
